A study of Mus musculus with 4 samples.

Results

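The Ikaros family of zinc finger transcription factors was examined in mouse regulatory T cells (Treg) and in the naive CD4 T cells from which Treg can be induced. The 4 genes chosen by name were Ikzf1 (Ikaros), Ikzf2 (Helios), Ikzf3 (Aiolos) and Ikzf4 (Eos), and every array probe that the probe-to-gene table assigns to them was taken. That gave 5 probes for 3 of the 4 genes, out of 16590 named genes on the array. No probe used here carried the name Ikzf3, and Aiolos was not analysed here.

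Ikaros family proteins bind DNA through zinc fingers near their start and pair with themselves and with each other through zinc fingers near their end. They recruit repressor complexes, among them the NuRD chromatin remodeller and the CtBP corepressors, and can also activate genes. Ikaros is needed for lymphocyte development, Helios marks many Treg that arise in the thymus, and Eos is known in mouse Treg as a partner through which Foxp3, the factor that defines Treg, represses genes.

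All 4 groups came from male mice of the strain B6.Cg-Foxp3tm2Tch/J, in which green fluorescent protein (GFP) reports Foxp3. The first group was vitamin C iTreg, induced Treg made from sorted naive CD4 T cells with antibodies to CD3 and CD28 (1 µg/ml each), IL-2 (15 ng/ml), TGF-beta (10 ng/ml) and vitamin C (10 µg/ml). The second was conventional iTreg, made in the same way with no vitamin C. Cells of both cultures were sorted again as GFP+CD25+ after 5 to 6 days, or 5 days by the series text. The third was natural Treg, sorted as CD4+CD8-GFP+ straight from lymph node and spleen. The last was naive CD4, sorted there as CD4+CD8-GFP-CD44low cells and never cultured. The gates therefore used Foxp3 and, in part, CD25 and CD44, but no Ikaros family gene. No array held cells stimulated with antibody and IL-2 in the absence of TGF-beta, so induction as Treg and stimulation in culture cannot be told apart. The sources used here do not say whether animals were pooled.

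Each group had 1 Illumina bead array, so a difference below is between a pair of arrays, has no replicate check and carries no test or error. Signals are normalized log2 intensities, and a probe counted as detected on an array when its detection p-value was under 0.01. At that limit 7035 to 7613 genes were detected per array. Where 1 array of a pair did not detect a probe, its value there was set to the lowest detected signal of that array, if that was higher, and the fold is a lower bound. Between 2 probes of the same gene, detected on both arrays, log2 differences disagreed by a median of 0.11 to 0.19. This gap measures disagreement between probes on the same arrays, and does not cover variation between arrays, sorts, cultures or animals. Levels of different probes are not compared with each other. RNA came from whole sorted populations, so fewer cells that express a gene and less RNA per cell cannot be told apart.

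The sorted genes followed the gates. Foxp3 was at 8.05 on the vitamin C iTreg array, 8.27 on conventional iTreg and 8.09 on natural Treg, and was not detected in naive CD4. Il2ra, which encodes CD25, was likewise detected on the Treg arrays and not in naive CD4. All 9 T cell identity genes with a probe, Cd3e and Cd4 among them, were detected on every array. Among the B cell markers with a probe, Cd79a, Ms4a1, Pax5 and Cd22 were detected on no array. Cd79b, Cd74, H2-Ab1 and H2-Aa were detected in natural Treg and naive CD4, and Cd74 and H2-Ab1 also on both iTreg arrays. Of these 4, in natural Treg over naive CD4, 2 were above 0, with Cd79b at 2.37, and 2 were below.

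Eos (Ikzf4) was high in every kind of Treg and low in naive CD4. On its bright probe, ILMN_1228038, the normalized log2 signal was 11.68 in vitamin C iTreg, 11.85 in conventional iTreg, 11.63 in natural Treg and 8.46 in naive CD4. The deposited intensities behind these values were 3814, 4017 and 2971 in the Treg arrays and 382 in naive CD4, all with a detection p-value of 0. The Treg arrays thus lay close together, and naive cells held a low but detected Eos signal.

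Over naive CD4, Ikzf4 was 9.33-fold higher in vitamin C iTreg, 10.5-fold higher in conventional iTreg and 9.03-fold higher in natural Treg. These comparisons share the naive array. Set against natural Treg, the log2 difference of Ikzf4 was 0.05 for vitamin C iTreg and 0.22 for conventional iTreg, so induced and natural Treg did not separate by Eos. A further Ikzf4 probe, ILMN_1258647, was detected on no array, with log2 signals of 4.86 to 5.04. Averaging it with the bright probe brings the log2 difference of conventional iTreg over naive CD4 to 1.78, against 3.40 for the bright probe alone.

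Helios (Ikzf2) separated natural Treg from everything else. Its only probe, ILMN_1217123, read 10.56 in natural Treg with a detection p-value of 0. On the same log2 scale it read 5.73 in vitamin C iTreg, 6.15 in conventional iTreg and 5.20 in naive CD4, and was not detected on these arrays. Deposited intensities were 166 and 175 in vitamin C and conventional iTreg, 1426 in natural Treg and 120 in naive CD4.

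With the background corrected, Ikzf2 was at least 20.6-fold lower in vitamin C iTreg than in natural Treg, at least 21.0-fold lower in conventional iTreg than in natural Treg, and natural Treg exceeded naive CD4 by at least 15.0-fold. These bounds depend on that correction. With no background correction, and with the authors' log2 values, they are 9.38-fold, 9.46-fold and 8.11-fold. Only conventional iTreg fell just short of detection, with a detection p-value barely above the 0.01 limit. The detection p-value was 0.0451 in vitamin C iTreg and 0.209 in naive CD4. With a limit of 0.05 in its place, Ikzf2 counts as detected on both iTreg arrays, its log2 difference of vitamin C iTreg over conventional iTreg is -0.42, and conventional iTreg is at least 1.19-fold above naive CD4. Any Helios signal in iTreg was thus at or under the detection limit, and below that of natural Treg.

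Ikaros (Ikzf1) ran the other way, highest in naive CD4 and lowest in both cultured populations. The brighter probe, ILMN_3127790, read 9.94 in vitamin C iTreg, 10.12 in conventional iTreg, 11.41 in natural Treg and 12.35 in naive CD4. The other probe, ILMN_3051466, read 7.85 in vitamin C iTreg, 8.05 in conventional iTreg, 10.22 in natural Treg and 11.08 in naive CD4. Both were detected on every array and put the arrays in the same order.

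Against naive CD4, Ikzf1 was 5.33-fold lower in vitamin C iTreg and 4.71-fold lower in conventional iTreg on the brighter probe. On the other probe these folds were 9.39 and 8.15. The probes disagreed here by a log2 value of 0.82 for vitamin C iTreg and 0.79 for conventional iTreg. Across genes with a pair of detected probes, the 90th percentile of that gap was 0.62 and 0.64, so the Ikzf1 probes lay beyond it. Natural Treg lay between: Ikzf1 was 1.93-fold lower than in naive CD4 on the brighter probe and 1.81-fold lower on the other, a gap of 0.09 in log2. Against natural Treg the log2 difference on the brighter probe was -1.47 for vitamin C iTreg and -1.29 for conventional iTreg. On the other probe it was -2.38 for vitamin C iTreg and -2.17 for conventional iTreg. These gaps of 0.91 and 0.88 were wider than in the other comparisons.

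**Figure D1:**
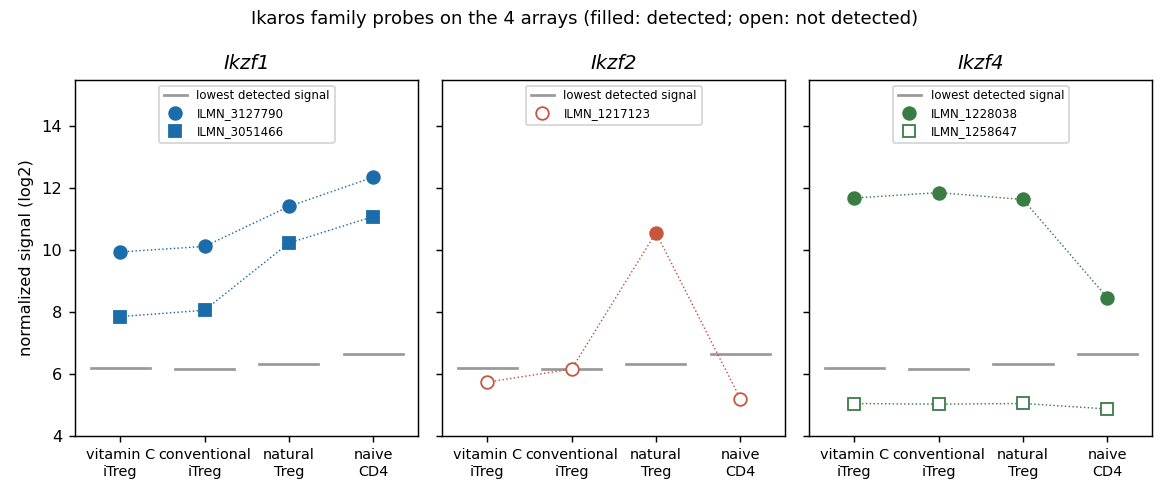
Normalized log2 signal of each Ikzf1, Ikzf2 and Ikzf4 probe (vertical axis) on the 4 arrays (horizontal axis), 1 point per array. Filled points were detected, open points were not, and grey bars mark the lowest detected signal of each array. Ikzf1 is highest in naive CD4 (12.35 and 11.08), Ikzf2 stands out in natural Treg (10.56), and the detected Ikzf4 probe is low in naive CD4 (8.46).

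Several marker groups differed between the arrays beside Ikzf1. The 4 naive T cell markers with a probe had a median log2 difference of -2.72 for vitamin C iTreg, -2.04 for conventional iTreg and -0.97 for natural Treg over naive CD4, the order seen for Ikzf1. Lef1, Il7r and Klf2 each followed that order. Ccr7 did not, at -0.09 for vitamin C iTreg, 0.09 for conventional iTreg and -0.71 for natural Treg. The T cell identity genes had a median log2 difference of -0.79 for vitamin C iTreg and -0.80 for conventional iTreg over naive CD4, with 9 of 9 below 0 in each, against -0.05 for natural Treg. Of 7 cell cycle genes compared, 7 were above 0 in conventional iTreg over naive CD4, with a median of 3.49. Summed signal of the CD8 T and NK cell markers was 6298 in vitamin C iTreg, 11718 in conventional iTreg, 11564 in natural Treg and 17892 in naive CD4, with Cd8a, Gzma, Klrb1c, Ncr1 and Eomes undetected throughout. Among the 4 compared in each iTreg array over naive CD4, 3 were at least 2-fold lower and Nkg7 was higher. B cell markers had a sum of 4044 in vitamin C iTreg, 4786 in conventional iTreg, 3044 in natural Treg and 1561 in naive CD4; 2 of 11 were detected in each iTreg array and 4 in the others. They went in both directions: in conventional iTreg over naive CD4, the MHC class II genes Cd74 (2.81) and H2-Ab1 (1.97) were higher, while H2-Aa (a bound of -1.95) and Cd79b (a bound of -1.43) were lower. Myeloid markers summed to 7012 in vitamin C iTreg, 5733 in conventional iTreg, 4175 in natural Treg and 3233 in naive CD4, with Lyz2, Itgam and Cd14 undetected throughout. Of the 3 compared in conventional iTreg over naive CD4, Cst3 was at 1.20, Fcer1g at a bound of 0 and Ctss at -0.68. Erythroid markers were detected in natural Treg and naive CD4 only (2 of 3 with a probe). The part of any of these in the Ikzf1 difference was not tested.

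The family's differences can be read against all genes compared. Between vitamin C iTreg and conventional iTreg, 0 of the 2 members compared reached 2-fold, where 1.75% of 7756 genes did (0.941% higher and 0.812% lower). In conventional iTreg over naive CD4, Ikzf4 was at least 2-fold higher and Ikzf1 at least 2-fold lower, where 27.9% of 7963 genes reached 2-fold in either direction (13.2% higher and 14.7% lower). The same 2 members reached it in vitamin C iTreg over naive CD4, against a background of 29.8% (13.8% higher and 16% lower). In natural Treg over naive CD4, Ikzf2 and Ikzf4 were at least 2-fold higher, where 8.06% of 7582 genes reached 2-fold (6.03% higher and 2.03% lower), and Ikzf1 fell just short of it. In conventional iTreg over natural Treg, Ikzf1 and Ikzf2 were at least 2-fold lower where 23.1% of 8031 genes reached 2-fold (11.1% higher and 12% lower). The same members did so in vitamin C iTreg over natural Treg, where 24.8% of 8034 genes did (11.7% higher and 13% lower). With so many genes past 2-fold between cultured and directly sorted cells, the count of members there says little about the family. Ikzf2 was compared only because natural Treg detected it, so it could only come out higher in natural Treg. These comparisons share arrays with each other.

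**Figure D2:**
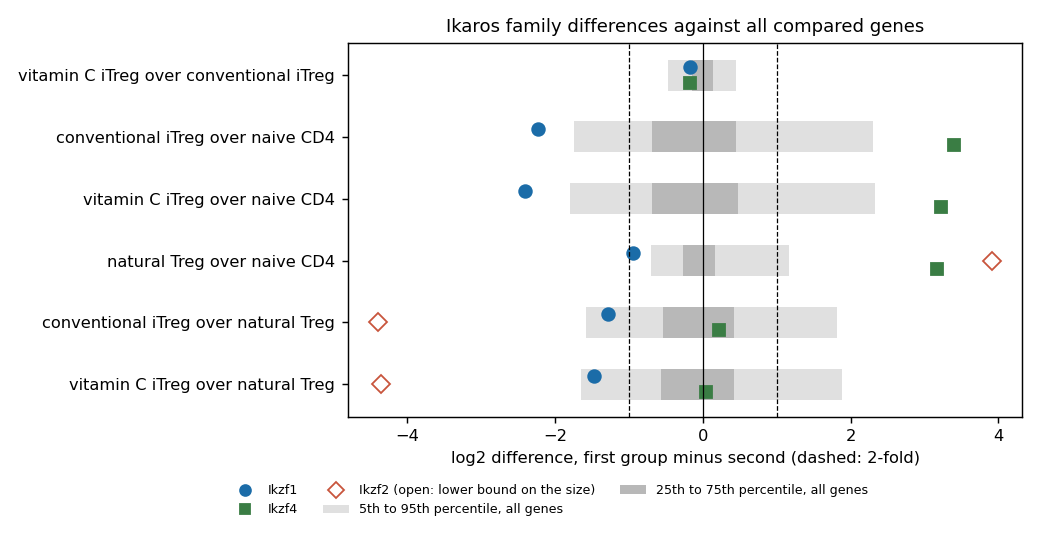
Log2 difference of each detected member, first group minus second (horizontal axis), in 6 comparisons (rows). Grey bars span the 25th to 75th and the 5th to 95th percentile of all compared genes, dashed lines mark 2-fold, and open diamonds are lower bounds. Ikzf4 lies above 3 in each comparison with naive CD4, and Ikzf2 lies beyond -4 in each iTreg array over natural Treg.

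The family's signals differed little between the iTreg arrays with and without vitamin C. In vitamin C iTreg over conventional iTreg, Ikzf1 differed by -0.18 on the brighter probe and -0.20 on the other, and Ikzf4 by -0.18. All are below 0, at sizes near the median size of 0.14 among all genes compared, and the median of all genes was -0.0073. The Ikzf1 probes agreed to 0.03 in log2. Before normalization, the vitamin C iTreg intensities were 0.936 and 0.937 of the conventional ones for Ikzf1, 0.95 for Ikzf4 and 0.948 for Ikzf2.

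Ikzf5 (Pegasus), a more distant family member with other DNA preferences, was read beside them. Its detected probe, ILMN_2963412, read 8.19 in vitamin C iTreg, 8.19 in conventional iTreg, 8.73 in natural Treg and 9.01 in naive CD4. It was highest in naive CD4, as Ikzf1 was, and within 2-fold in every comparison, with -0.82 for each iTreg array over naive CD4. A second Ikzf5 probe was detected on no array.

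The genes with the profiles most like each member were found by the distance between log2 profiles over the 4 arrays, each centred on its own mean, among 8100 genes detected on at least 1 array. With only 4 points, such likeness is a description. For Ikzf4 the nearest were Eno2, a glycolytic enolase (distance 0.05), Foxp3 itself (0.09), Cemip2 (0.21), Ahnak (0.24) and Apol9b (0.25). The Foxp3 profile was therefore the second nearest to that of Eos, with the reservation that Foxp3 was not detected in naive CD4 and that the cells were sorted on it. Eno2, Cemip2 and Apol9b were likewise not detected in naive CD4, so their distances also rest on a value under the detection limit. With no background correction Foxp3 ranked 42, and with a larger offset of 50 it ranked 20, settings tried after the values were seen. For Ikzf1 the nearest were Dennd2d (0.05), B3galt4 (0.13), Gpr132 (0.15), Zbtb2 (0.15) and Slc35a5 (0.17). Gpr132 and Slc35a5 were not detected in vitamin C iTreg. Dennd2d read 9.35 in vitamin C iTreg, 9.55 in conventional iTreg, 10.78 in natural Treg and 11.72 in naive CD4. For Ikzf2 the nearest were Klrg1, an inhibitory receptor found on mature Treg (0.75), Ky (0.79), Wfdc2 (0.87), Naip5 (1.23) and Myo1f (1.24). Klrg1, Ky, Wfdc2 and Naip5 were detected only in natural Treg, as was Ikzf2. The Ikzf2 distances therefore also rest on values under the detection limit. Other probes of 4 of these genes gave a value in conventional iTreg over naive CD4, a comparison made after the values were seen. That of B3galt4 gave -2.14, against -2.32 for the probe used, and that of Slc35a5 a bound of -1.88, against -2.12. That of Ahnak gave a bound of 0, against 3.62, and that of Cemip2 a bound of 0.39, against 2.20.

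**Figure D3:**
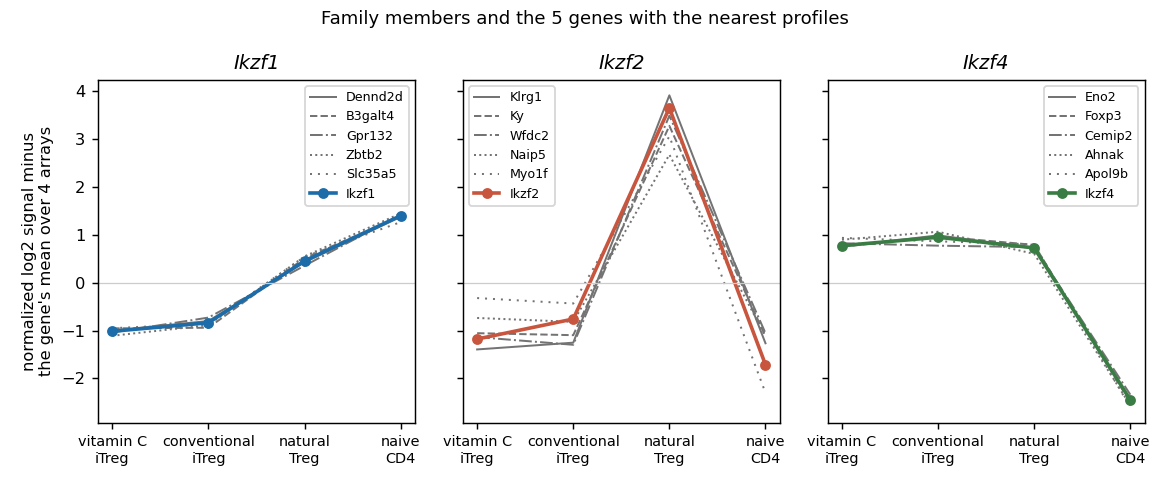
Normalized log2 signal minus each gene's mean over the 4 arrays (vertical axis) on each array (horizontal axis), for Ikzf1, Ikzf2 and Ikzf4 (coloured) and the 5 genes with the nearest profiles (grey). The Ikzf1 and Ikzf4 profiles nearly coincide with their neighbours (distances of 0.05 to 0.25), while those of Ikzf2 are farther off (0.75 to 1.24).

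Among the corepressor genes through which Ikaros proteins act, most of those compared with naive CD4 stayed within 2-fold. Of 9 NuRD genes compared in conventional iTreg over naive CD4, 6 were above and 3 below 0, with a median of 0.29 against -0.08 for all genes. Of all genes compared there, 13.2% were at least 2-fold higher and 14.7% lower. Rbbp7, a histone-binding subunit, was the 1 gene at least 2-fold higher (1.19), followed by Mta3 (0.98), Mbd3 (0.59) and Mta1 (0.57). This order depends on the probe: another Mta3 probe gave 0.36, the other 3 Rbbp7 probes gave 0.80 to 1.22, and Chd4, at 0.29 on the probe used, was at 0.84 and 0.71 on others. In natural Treg over naive CD4, 0 of the 9 reached 2-fold, where 8.06% of all genes did, and their median was -0.03. In vitamin C iTreg over conventional iTreg 8 of the 9 were below 0, none by 2-fold, with a median of -0.09. Ctbp1, the corepressor to which Eos binds in mouse Treg, was not detected on any array by the probe used (named after its values were seen). Of the 5 CtBP, SIN3 and NCoR genes compared in conventional iTreg over naive CD4, Sap30, a SIN3 complex subunit, was at least 2-fold higher (3.35), while Rcor1 (-0.75), Sin3b (a bound of -0.54) and Sin3a (-0.44) were below 0. Their median was -0.44. Sap30 differed by 0.16 in natural Treg over naive CD4.

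Cereblon (Crbn), the substrate receptor through which thalidomide-type drugs direct human Ikaros and Aiolos to the CRL4 ubiquitin ligase, was lower where Ikzf1 was lower. It was at -1.43 in vitamin C iTreg and -1.37 in conventional iTreg over naive CD4, and at -0.29 in natural Treg over naive CD4. Its other 4 probes gave -0.85 to -1.55 in conventional iTreg over naive CD4, where -0.85 is a bound. The remaining 4 CRL4 genes stayed within 2-fold in these comparisons, with Ddb1 at 0.55, Cul4a at 0.35 and Rbx1 at -0.16 in conventional iTreg over naive CD4. Another Rbx1 probe disagreed, at -1.15. The median of the 5 was -0.09.

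Foxp3 and the transcription factors that work with it went in both directions. Among 14 compared in conventional iTreg over naive CD4, 6 passed 2-fold upward and 3 downward, with a median of -0.03. Among all genes there, 13.2% passed upward and 14.7% downward. The 6 include Foxp3, on which the cells were sorted. Without it, 5 of 13 partners passed upward and 3 downward, with a median of -0.26. The 5 include Stat5a (1.49), for which another probe gave 0.71. The largest differences were those of Irf4, a factor of effector Treg (4.76), Xbp1, of the secretory response (3.07), and Lef1 (-2.97) and the genome organiser gene Satb1 (-2.58), both high in naive T cells. In natural Treg over naive CD4, 5 of the 14, again with Foxp3, passed 2-fold upward and 1 downward, with a median of 0.37. Among all genes there, 6.03% passed upward and 2.03% downward. Without Foxp3, 4 of 13 passed upward and 1 downward, and the median was -0.03. The largest differences were Irf4 at 2.45, Lef1 at -1.23, Hif1a at 1.19 and Foxp3 at a bound of 1.44. Gata3, which acts with Foxp3 in natural Treg, was at -2.74 in vitamin C iTreg and -2.27 in conventional iTreg over natural Treg.

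Genes linked to thymus-derived Treg showed where iTreg resembled natural Treg and where, as with Helios, they did not. Among 11 compared in conventional iTreg over natural Treg, 3 passed 2-fold upward and 4 downward (median -0.13). Of all genes compared there, 11.1% were at least 2-fold higher and 12% lower. Those higher were Il2ra (1.55), Tnfrsf9 (1.26) and Nt5e (1.04), and the iTreg had been sorted on CD25, which Il2ra encodes. Those lower were Klrg1, by a bound of -4.07, the integrin gene Itgae (-2.60), the receptor gene Gpr83 (-2.41) and Swap70 (-1.96). Klrg1 was compared only because natural Treg detected it, so it could only come out lower. Nrp1, which like Helios has served to mark thymus-derived mouse Treg, did not follow Ikzf2. It differed by -0.97 in vitamin C iTreg and by -0.14 in conventional iTreg over natural Treg, and was 5.45 above naive CD4 on the log2 scale in conventional iTreg. A second Nrp1 probe gave 5.24 there, and -1.10 in vitamin C iTreg and -0.30 in conventional iTreg over natural Treg, so that vitamin C iTreg passed 2-fold on that probe alone. Of the 10 compared in conventional iTreg over naive CD4, 8 were at least 2-fold higher, against 13.2% of all genes, with a median of 4.24. Il2ra and Pdcd1 were compared there only because conventional iTreg detected them, so they could only come out higher. Swap70 was among the 8 at 1.08, but other Swap70 probes gave 0.90 and 0.65. This list overlaps the genes that define Treg, on which the sort bears.

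Several T helper genes that Ikaros family members are known to control in mouse T cells were at least 2-fold lower in iTreg than in natural Treg. Of 10 compared in conventional iTreg over natural Treg, 6 were at least 2-fold lower, against 12% of all genes, and none higher. The median of the 10 was -1.12, against -0.06 for all genes. The other 4 were within 2-fold, with Rora (0.36) and Il6ra (0.18) above 0. Those lower were led by Stat4 (-3.20), Il10 (a bound of -2.88), Cxcr5, a receptor of follicular T cells (-2.72), and Gata3 (-2.27). The 6 also include Ifng, at a bound of -1.06, or -0.74 on another probe. Il10 and Ifng were compared only because natural Treg detected them, so they could only come out lower. In vitamin C iTreg over natural Treg 6 were again at least 2-fold lower, against 13% of all genes. Stat4 was at -4.23, Cxcr5 at -3.30, Il10 at a bound of -2.85 and Ifng at a bound of -1.03. Tbx21, which encodes T-bet, was higher (1.32). Il10 and Ifng again entered through natural Treg alone. Other probes gave -3.23 for Stat4 and -2.62 and a bound of -1.97 for Cxcr5 in conventional iTreg over natural Treg. In vitamin C iTreg over conventional iTreg, 1 of 8 compared was at least 2-fold higher, Tbx21 (2.10), and 1 lower, Stat4 (-1.03). Another Stat4 probe gave a bound of -0.67. Of all genes compared there, 0.941% were at least 2-fold higher and 0.812% lower. Il10 was detected in natural Treg alone, as Ikzf2 was. Il2, which Aiolos and Eos are known to silence, had no probe named here.

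Early lymphoid and Notch genes that Ikaros is known to repress were detected on at least 1 array for 5 of the 10 with a probe. All 5 were compared in conventional iTreg over naive CD4, where 1 passed 2-fold upward and 2 downward. Of all genes compared there, 13.2% were at least 2-fold higher and 14.7% lower. The median of the 5 was -0.98, itself a bound, against -0.08 for all genes. Dtx1, Vpreb1 and Dntt were compared only because naive CD4 detected them, so they could only come out lower. Dtx1, a Notch target, was lower by a bound of -4.83 and Notch1 by -1.69, while the Notch target Nrarp was higher (1.21). In natural Treg over naive CD4, 5 were compared and none reached 2-fold.

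**Figure D4:**
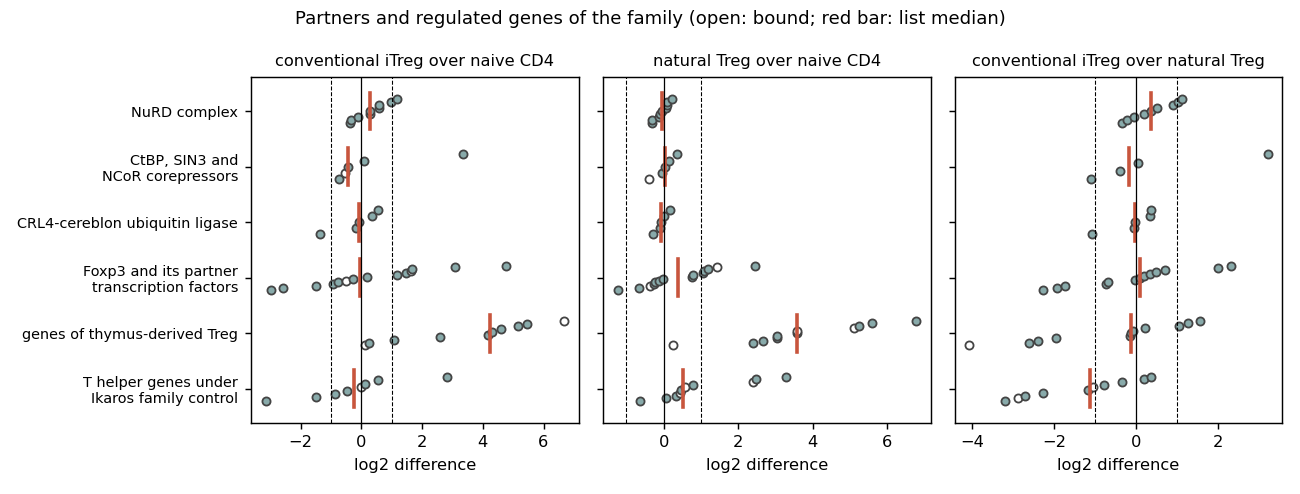
Log2 differences (horizontal axes) of the compared genes of 6 lists (rows) in 3 comparisons (panels), 1 point per gene, with open points for bounds and a red bar at each list's median. The medians of the NuRD, corepressor and ligase genes lie between the 2-fold lines (dashed) in each panel. The thymus-derived Treg genes lie far above 0 over naive CD4 (median 4.24 in conventional iTreg).

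The genes next to the members in the RefSeq table of assembly GRCm38.p6 were read to see whether whole neighbourhoods moved, a look chosen after the values were known. Fignl1, a DNA repair gene and the next protein-coding gene after Ikzf1, went the opposite way, at 4.38 in vitamin C iTreg, 4.05 in conventional iTreg and 1.77 in natural Treg over naive CD4. Beside Ikzf4, the ribosomal protein gene Rps26 differed by 0.35 and Suox, which encodes sulfite oxidase, by 0.54 in conventional iTreg over naive CD4, where Ikzf4 itself differed by 3.40. Ddc, the gene after Fignl1, was detected in natural Treg alone, and was at least 1.54 higher there than in naive CD4 on the log2 scale. None of the genes nearest to Ikzf2 could be compared.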

How the data were processed

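Each of 4 groups had 1 Illumina bead array, hybridised with biotin-labelled RNA amplified from 550 ng of total RNA, per the labels' protocols. The submitters' processing notes name GenomeStudio 2011.1. Whether background was subtracted before deposit is unknown. Per the file headers, each of 25697 probes had a deposited intensity, on a linear scale, and a deposited detection p-value on every array. A further deposited table held log2 values, which equalled quantile-normalized log2 intensities within 5e-07.

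Intensities were background-corrected and quantile-normalized with neqc of limma 3.58.1 (R 4.3.3, offset 16), which inferred the negative controls from detection p-values. Quantile normalization hides a shift of most genes, and the offset pulls dim genes toward 0. Symbols were updated through RefSeq identifiers, which matched 23971 of 23978 named probes. Counts of genes took the brightest probe of each, by mean log2 over the arrays. The steps were tested on simulated data. Counts used a limit of 2-fold. The number of arrays limits precision, and no test was possible.

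The text names every member probe, up to 4 genes per list with the largest differences in a described comparison, the 5 nearest genes per member and the sorted genes. The markers, the neighbouring genes and all values of other probes of a gene fall outside that rule. So do Chd4, Ctbp1, Dntt, Ifng, Il2, Il6ra, Pdcd1, Rora, Stat5a and Tnfrsf9. All of these were named after their values were seen. The count of partners without Foxp3 was also made then. The members and lists were chosen with earlier results of these data known, as were 8 alternatives on background, offset, scaling, detection, and probe averaging. RefSeq promoter sequences were not printed, since no measurement here bears on promoters.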

Additional observations from a re-analysis of the deposited data

How the results depend on the processing

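The 8 alternatives changed no direction of a member past 2-fold. Of 96 recomputed counts, 91 stayed within 1.5 times the reported one. With no background correction, and likewise with the authors' log2 values, 54 genes reached 2-fold in vitamin C iTreg over conventional iTreg, against 136. With detection required on both arrays, 1 member reached 2-fold in natural Treg over naive CD4, 1 in conventional iTreg over natural Treg and 1 in vitamin C iTreg over natural Treg, against 2 each, since Ikzf2 was then left out. With median centring Ikzf1 passed 2-fold in natural Treg over naive CD4 (-1.05). Over the settings, Ikzf1 in conventional iTreg over naive CD4 ranged from -2.63 to -2.14, and Ikzf4 from 1.78 to 3.55, the lowest with its undetected probe averaged in. Ikzf2 in conventional iTreg over natural Treg ranged from -4.41 to -3.24. Median centring moved the median of all genes in conventional iTreg over natural Treg to 0.07, against -0.06, and the split of genes past 2-fold to 1072 higher and 764 lower, against 893 and 963. In vitamin C iTreg over natural Treg it moved the median to 0.08, against -0.06, and the split to 1144 and 826, against 943 and 1048. The nearest genes depended more on the setting, and the cause was not tested. Of the 5 named for Ikzf4, 2 remained with no background correction, 3 with an offset of 50 and 5 with median centring. For Ikzf1, 2 of the 5 remained with no background correction, 1 with an offset of 50 and 3 with median centring. For Ikzf2, 4 remained under each of these settings. Signals near background, such as Ikzf2 in iTreg, limit what can be read. No paired analysis was possible because each group had 1 array.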
